A study of Mus musculus with 6 samples.

Results

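Chemokines are small secreted proteins that guide the movement of cells, and chemokine receptors are the membrane proteins that bind them. Genes of this family were taken from the deposited count table by gene symbol: protein-coding genes named as Ccl, Cxcl, Xcl or Cx3cl ligands, as Ccr, Cxcr or Cx3cr receptors, or as atypical receptors (Ackr). The rule gave 58 of the 21764 protein-coding genes in a table of 50600 genes, namely 37 ligands, 17 signalling receptors and 4 atypical receptors. No expression value entered this rule, although the family was chosen with earlier results of these data known.

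The RNA came from the cardiac side population (SP), the heart cells that pump out the DNA dye Hoechst and so appear at the side of the main population in flow cytometry. There were 3 libraries from wild-type (wt) C57BL/6NRj mice and 3 from mice of the strain C57BL/6Flt3Ltml/mx, which carry a targeted flt3L allele on a C57BL/6N background and are called flt3L-/-. All mice were 8 to 12 wk old, each library held the sorted SP cells of 4 pooled animals, and 1 library of each genotype was made on each of 3 sorting dates. Libraries were matched to dates by their order within each group (replicate 1, 2 or 3). Neither the study's methods nor the numbers in the library titles give this match. The libraries matched to 1 date are called pair 1, 2 or 3, and p-values measure the spread between these pools. The comparison asks how SP cells without the cytokine Flt3L differ from wt SP cells in gene expression. Flt3l, the gene for that cytokine, was at 8.67, 10.8 and 12.1 CPM (counts relative to library size, scaled by the trimmed mean of M-values, TMM) in the wt libraries of pairs 1, 2 and 3. It was at 13.6, 12.4 and 14.5 CPM in the 3 libraries labelled flt3L-/-, that is, not lower in any of them, and 22.1% of its exon bases lie in other genes. The counts do not separate reads of the targeted allele from reads of an intact one, so the genotype could not be checked, and the second group is called "the libraries labelled flt3L-/-" throughout. Every direction given here is that of the labels.

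As background, chemokine receptors are G protein-coupled receptors, and most bind several ligands, while many ligands bind several receptors. Signalling receptors act through inhibitory G proteins and are carried mainly by leukocytes, whereas atypical receptors bind chemokines without G protein signalling and remove or transport them. In the heart, endothelial cells, fibroblasts and resident macrophages are known sources of chemokines, and Cxcl12 in particular retains progenitor cells and leukocytes that carry Cxcr4.

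Total counts lay between 24370913 and 31145519 per library, so that 3 counts, taken as the limit of detection, were 0.109 to 0.127 CPM. The libraries differed in leukocyte transcripts. The summed level of 10 general leukocyte markers, such as Ptprc (CD45), was 337, 923 and 1844 CPM in the wt libraries of pairs 1, 2 and 3, against 426, 1054 and 278 CPM in the libraries labelled flt3L-/-. In pair 3, the wt library was the highest of the 6 and the library labelled flt3L-/- the lowest, and the median log2 difference of these markers there was -3.07, against 0.44 in pair 1 and 0.36 in pair 2. Values without pair 3 are therefore given beside the results that rest on it. In bulk samples, fewer cells of a type and less RNA per cell cannot be told apart.

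Of the 58 genes, 5 had no count in any library (the ligands Cxcl13, Cxcl15, Ccl26, Ccl21b and Ccl27b), which allows up to 0.127 CPM each. A further 2 genes, Ccl17 and Ccr6, never reached 3 counts. The remaining genes comprised 36 with at least 3 counts in all 6 libraries and 15 with that many in 1 to 5 libraries. Ccl21b and Ccl27b are near-identical to Ccl21a and Ccl27a, and reads with equally good hits were placed at random. All counts of these genes nevertheless fell in Ccl21a and Ccl27a. How reads were divided within these 2 families was not tested, and their counts are uncertain. The filter of more than 1 CPM in at least 2 libraries was passed by 35 genes: 22 ligands, 10 signalling receptors and 3 atypical receptors.

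No chemokine or receptor gene passed the test between the groups. In edgeR's quasi-likelihood test with the sorting date as a block, 0 of the 35 had an adjusted p under 0.05 (Benjamini-Hochberg over all 13475 genes tested), against a background of 0% of all genes. At an unadjusted p under 0.05 the count was again 0 of 35, against 3.59% of all genes, 149 higher and 335 lower. Unlike this fit, the study reported differentially expressed genes after adjustment with this kind of test, none of them in this family. The background of 0% is therefore that of the fit run here, and why it differs from the study was not tested. In its gene set analysis, the study did report sets of natural killer cell and lymphocyte chemotaxis as down-regulated in flt3L-/- SP cells. No gene set test was run here. With DESeq2, 0 of the 35 had an adjusted p under 0.05, against 21 of all genes (0.156%), and 4 had an unadjusted p under 0.05, against 4.76% of all genes. The 4 were all lower in the libraries labelled flt3L-/-, with Ccl5, Ccr2 and Xcl1 among them. The smallest adjusted p of a member in edgeR was 0.973. With 3 pairs the test left 2 residual degrees of freedom, and a p above the threshold does not show that levels were equal.

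**Figure D1:**
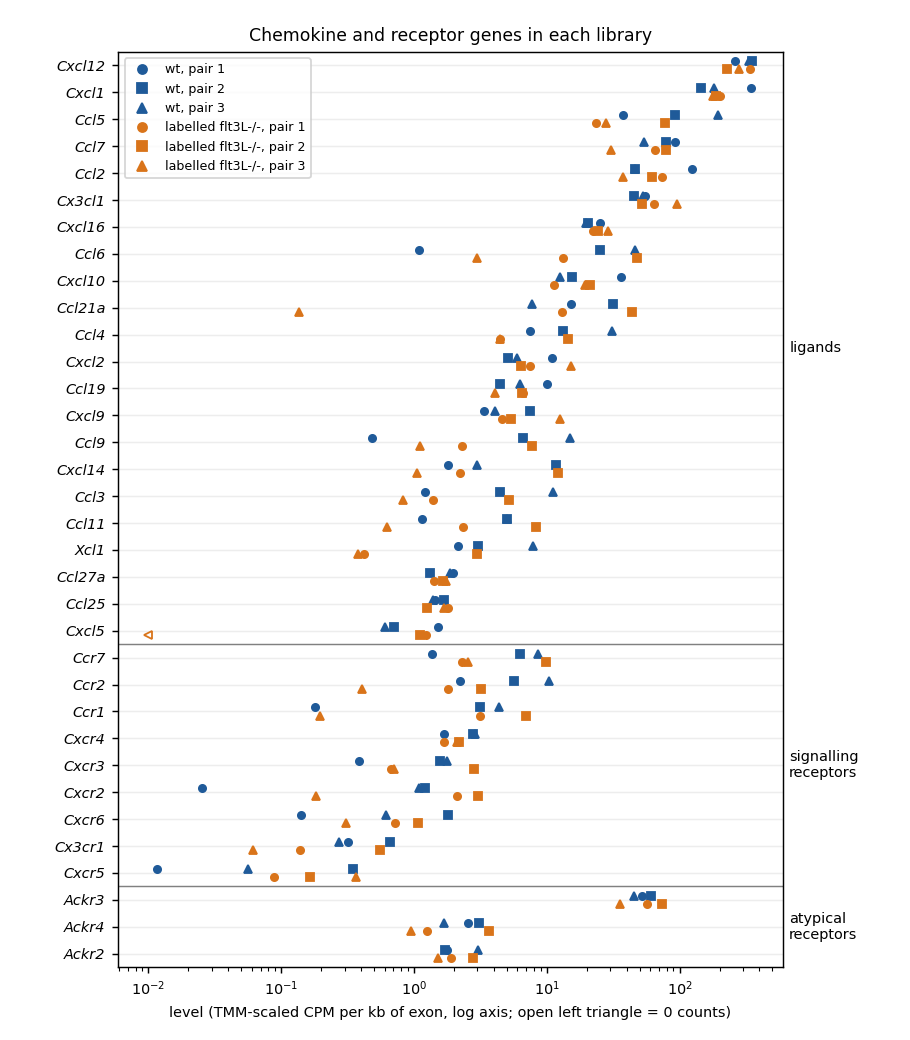
Level of 34 genes that passed the filter in each of the 6 libraries, as TMM-scaled CPM per kb of exon on a log axis, ordered within each role by the mean level; blue symbols are wt, orange symbols the libraries labelled flt3L-/-, and the shape gives the pair, with an open triangle at the left edge for 0 counts (Cxcl5). Cxcl12 and Cxcl1 lay at 145 CPM per kb or more in every library, whereas the highest value of a signalling receptor in any library was 10.3 CPM per kb (Ccr2).

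Summed over their genes, ligands were at far higher levels than signalling receptors in the cardiac SP. Summed CPM of the 37 ligands were 3487, 3833 and 3857 in the wt libraries and 3763, 2981 and 3316 in the libraries labelled flt3L-/-, with overlapping groups. Without Cxcl12 these sums were 1360, 942 and 1145 CPM, against 987, 1132 and 1041 CPM. Not every ligand stood above the receptors. Of the 37, 15 did not pass the filter, and Cxcl14, at 5.31 CPM per kb, lay close to the receptor Ccr7, at 5.14 CPM per kb. Summed CPM of the 17 signalling receptors were 31.7, 89.4 and 134 in the wt libraries and 41.6, 92.0 and 18.3 in the libraries labelled flt3L-/-. The receptor sum was higher in the second group in pairs 1 and 2 and lower in pair 3, and the groups overlapped. The 4 atypical receptors summed to 194, 226 and 171 CPM in the wt libraries, against 203, 275 and 130 CPM in the others, mostly Ackr3.

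Cxcl12, which binds Cxcr4 and the atypical receptor Ackr3, was the most abundant member at 298 CPM per kb of exon, above 99.2% of all genes tested on that scale. Its level was 2127, 2892 and 2712 CPM in the wt libraries, against 2776, 1849 and 2275 CPM in the libraries labelled flt3L-/-. The groups overlapped, with the second group higher in pair 1 and lower in pairs 2 and 3 (log2 fold change -0.17, SE 0.25, unadjusted p = 0.522 in edgeR's quasi-likelihood test). It was the ligand with the highest level per kb in 5 libraries. In the wt library of pair 1 that place was taken by Cxcl1, with 33.4% of the summed ligand level per kb against 25.1% for Cxcl12.

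Cxcl1, a ligand of the neutrophil receptor Cxcr2 that inflamed stromal and endothelial cells release, had the next highest level, at 207 CPM per kb. It was at 648, 272 and 339 CPM in the wt libraries and at 377, 352 and 336 CPM in the libraries labelled flt3L-/-. The wt library of pair 1 stood above the other 5 libraries, and the other 5 lay between 272 and 377 CPM (log2 fold change -0.14, SE 0.26). Cxcl2 and Cxcl10, named here after their values were seen, shared the direction of Cxcl1 in pairs 1 and 2. Cxcl2, another Cxcr2 ligand, was at 22.8, 10.6 and 12.4 CPM in the wt libraries and at 15.4, 13.2 and 31.7 CPM in the libraries labelled flt3L-/-. Cxcl10, an interferon-induced ligand of Cxcr3, was at 81.3, 34.9 and 28.5 CPM in the wt libraries and at 25.6, 47.5 and 43.6 CPM in the others. All 3 were lower in the second group in pair 1 and higher in pair 2, the opposite of Cxcl12.

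The proximal promoters of these 4 ligands are shown to set the most abundant ligand, Cxcl12, beside 3 inducible ligands that had the other direction in pairs 1 and 2, and they were picked after the values were seen. The stretches run from position -200 to -11 relative to the RefSeq start (GRCm38.p6), 5′ to 3′ on the strand of the gene. Capitals mark matches to the NF-kB consensus, the site bound by a transcription factor of inflammation, and overlapping matches are merged.
Cxcl1: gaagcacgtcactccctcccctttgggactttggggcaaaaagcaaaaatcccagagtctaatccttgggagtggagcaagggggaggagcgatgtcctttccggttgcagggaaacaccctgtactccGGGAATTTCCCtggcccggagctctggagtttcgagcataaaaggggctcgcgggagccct
Cxcl2: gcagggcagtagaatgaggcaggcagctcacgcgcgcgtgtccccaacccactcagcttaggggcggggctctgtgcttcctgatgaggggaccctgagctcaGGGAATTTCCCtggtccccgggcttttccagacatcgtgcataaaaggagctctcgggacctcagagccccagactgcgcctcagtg
Cxcl10: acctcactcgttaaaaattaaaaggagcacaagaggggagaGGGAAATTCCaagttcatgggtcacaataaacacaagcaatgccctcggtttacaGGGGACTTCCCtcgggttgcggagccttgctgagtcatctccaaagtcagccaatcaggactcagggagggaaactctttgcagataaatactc
Cxcl12: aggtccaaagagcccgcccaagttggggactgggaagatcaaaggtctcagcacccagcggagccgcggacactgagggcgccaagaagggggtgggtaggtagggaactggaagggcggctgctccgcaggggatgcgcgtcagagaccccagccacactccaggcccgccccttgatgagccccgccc
The Cxcl1 stretch lies at chr5:90891045-90891234 on the plus strand and held 2 overlapping matches, from -71 to -61. The Cxcl2 stretch, at chr5:90903699-90903888 on the plus strand, held the same 11 letters from -97 to -87. The Cxcl10 stretch, at chr5:92348900-92349089 on the minus strand, held a match from -159 to -150 and 2 overlapping matches from -104 to -94. The Cxcl12 stretch, at chr6:117168335-117168524 on the plus strand, held 0. RefSeq promoter windows, from 250 bases before to 50 after the start, were available for 44 of the 58 genes. On both strands, 12 of them held the NF-kB consensus (8 of 27 ligands and 4 of 17 receptors), against 9.55% of 27025 genes. The ISRE core, read by interferon-activated factors and searched as TTTCNNTTTC on both strands, was in 3 of 44 (Ccl19, Cxcl10 and Cxcl14), against 3.99% of genes, with the Cxcl10 match from -213 to -204, outside the stretch printed. The 2 motifs differ in letters and did not overlap in these 4 windows. A match of letters is not a bound site. In all, 12 of the 35 tested members were lower in the second group in pair 1 and higher in pair 2. Of the 7 of these with a window, 4 held the NF-kB consensus (Cxcl1, Cxcl2, Cxcl10 and Ccl27a) and 3 did not (Ccl19, Ccl21a and Ackr4). Of the 18 with a window among the other 23, 3 held it (Ccl9, Ccr1 and Ackr2). A link between the motif and the direction was not tested.

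Ccl5, a ligand of Ccr1 that T and NK cells release, was at 36.3, 89.4 and 187 CPM in the wt libraries and at 22.5, 74.4 and 27.0 CPM in the libraries labelled flt3L-/-. The second group was lower in 3 of 3 pairs, by log2 differences of -0.69, -0.26 and -2.79, but the groups overlapped (log2 fold change -1.22, SE 0.55, unadjusted p = 0.0798 and adjusted p = 0.973 in edgeR's quasi-likelihood test). Without pair 3 the log2 fold change was -0.47. Of the 35 genes tested, 5 were lower in 3 of 3 pairs, with Ccl5, Xcl1, Ccr2 and Cx3cr1 among them, against 11.5% of all genes. The 1 gene that was higher in 3 of 3 pairs was Cx3cl1, against 14.2%. Groups that did not overlap were counted as well: 1 of 35 lay lower without overlap, against 2.92% of all genes, and 0 of 35 lay higher, against 3.53%. Xcl1, a chemokine of T and NK cells named after its values were seen, was at 1.13, 1.59 and 4.13 CPM in the wt libraries and at 0.218, 1.57 and 0.198 CPM in the others (6, 37 and 5 counts).

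Cx3cl1 (fractalkine), a membrane-bound ligand of endothelial cells that binds Cx3cr1, was at 215, 180 and 208 CPM in the wt libraries and at 250, 203 and 374 CPM in the libraries labelled flt3L-/-. The second group was higher within each pair, most in pair 3, yet the wt library of pair 1 exceeded the other library of pair 2. The mean was 201 ± 18.7 CPM (SD, n = 3) against 276 ± 88.1 CPM (SD, n = 3), with a log2 fold change of 0.41 (SE 0.19, unadjusted p = 0.0791 in edgeR's quasi-likelihood test) and of 0.20 without pair 3. Cx3cl1 is on chromosome 8 of GRCm38, from 94772009 to 94782427, and none of its exon bases is shared with another gene. The summed level of 10 endothelial markers was 7233, 8768 and 8696 CPM in the wt libraries, against 9418, 7059 and 9386 CPM in the others, higher in the second group in pairs 1 and 3 and lower in pair 2. Its part in the level of Cx3cl1 was not tested.

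**Figure D2:**
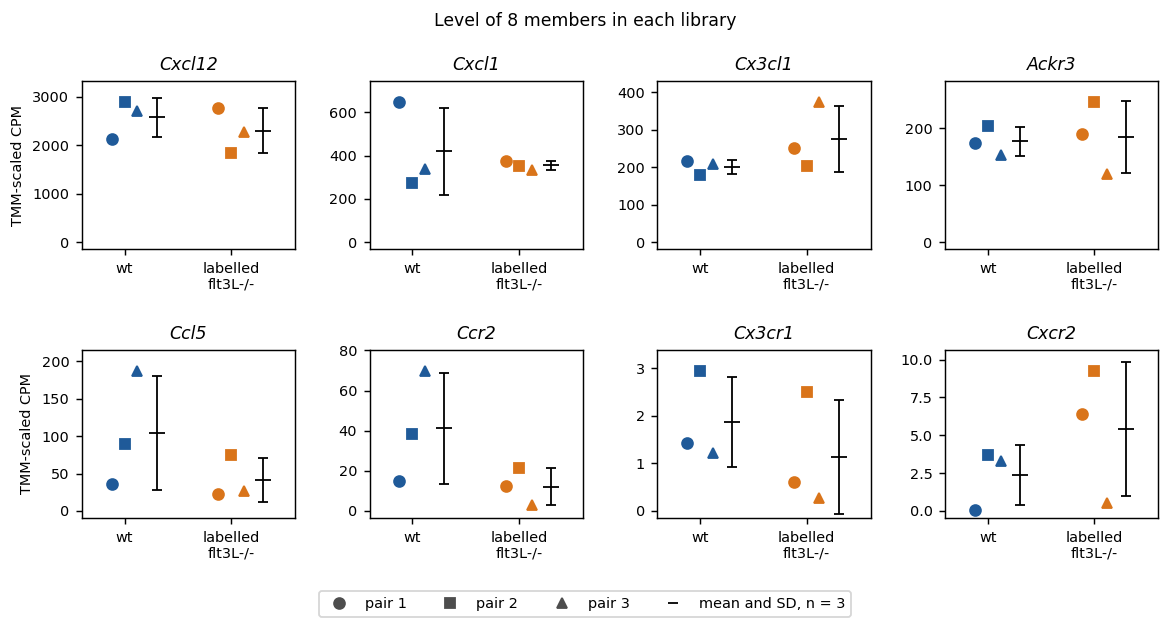
Level of 8 genes in each library, as TMM-scaled CPM on linear axes that differ between panels; symbols are the 3 pairs, and bars are the mean and SD of 3 libraries. The groups overlap in all 8 panels, and in those of Ccl5 and Ccr2 the wt library of pair 3 is the highest, at 187 and 69.8 CPM.

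The monocyte-attracting ligands Ccl7 and Ccl2, which bind Ccr2, were close to each other at 66.4 and 65.1 CPM per kb, and their order changed between libraries. Ccl7 was at 73.4, 62.9 and 43.2 CPM in the wt libraries and at 52.3, 63.0 and 24.4 CPM in the libraries labelled flt3L-/- (log2 fold change -0.44, SE 0.20, unadjusted p = 0.0818 in edgeR's quasi-likelihood test). Without pair 3 the log2 fold change of Ccl7 was -0.25, and without pair 2 it was -0.68. Ccl2 was at 141, 52.6 and 53.0 CPM in the wt libraries and at 84.2, 71.1 and 42.7 CPM in the others, with the wt library of pair 1 above the rest. For both genes the lowest library was that labelled flt3L-/- of pair 3, and the highest was the wt library of pair 1. Summed levels of 10 fibroblast markers had the same highest and lowest library: 45511, 28461 and 22390 CPM in the wt libraries, against 21813, 33064 and 10480 CPM in the others. Of these 10 markers, 0 had an adjusted p under 0.05, and 3 (Col1a1, Col1a2 and Postn) had an unadjusted p under 0.05, all lower in the second group. Their part in the levels of Ccl2 and Ccl7 was not tested.

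Cxcl16, a transmembrane ligand of the T cell receptor Cxcr6, was the steadiest of the leading ligands, at 76.5, 61.9 and 59.3 CPM in the wt libraries, against 67.5, 73.5 and 87.3 CPM in the others. Its highest level was 1.47 times its lowest, its log2 fold change was 0.21 (SE 0.18) and 0.03 without pair 3, and 18.3% of its exon bases lie in Zmynd15, whose reads cannot be told apart in an unstranded library. Ccl6, a ligand of Ccr1 made by macrophages and neutrophils, was the least steady. It was at 1.94, 45.3 and 82.2 CPM in the wt libraries and at 23.6, 86.3 and 5.30 CPM in the libraries labelled flt3L-/-. The log2 difference was 3.55 in pair 1, 0.93 in pair 2 and -3.93 in pair 3, so that the log2 fold change of 0.47 had an SE of 1.74 and was 2.17 without pair 3.

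The remaining 14 tested ligands had mean levels from 0.863 CPM per kb (Cxcl5) to 19.3 CPM per kb (Cxcl10). Among the genes of the Ccl cluster on chromosome 11, from 83525778 to 83664683 (GRCm38), Ccl5, Ccl9, Ccl3 and Ccl4 were highest in the wt library of pair 3, and all 5 members, Ccl6 included, were lower in the second group in that pair. Ccl4, an attractant of macrophages and T cells, was at 4.90, 8.69 and 20.6 CPM in the wt libraries and at 2.95, 9.46 and 2.93 CPM in the others. The neighbouring cluster from 82035571 to 82305690, with Ccl2, Ccl7, Ccl11, Ccl12, Ccl8 and Ccl1, had 3 tested genes, all lower in the second group in pair 3. Ccl21a, a ligand of Ccr7 that lymphatic endothelium makes, was at 13.3, 27.5 and 6.70 CPM in the wt libraries and at 11.4, 38.4 and 0.119 CPM in the libraries labelled flt3L-/-. The last value was 3 counts, the limit of detection. Cxcl9, an interferon-induced ligand of Cxcr3, was highest in the library labelled flt3L-/- of pair 3, at 37.6 CPM, against 10.1 to 22.7 CPM in the other 5 libraries. The genes named in these sentences on clusters, Ccl21a and Cxcl9 were chosen after their values were seen.

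Signalling receptors were expressed at low levels, and of the 10 tested all but Cxcr4 differed by 7.11 times or more between the highest and the lowest library. Ccr7, which guides dendritic cells and T cells to lymph nodes, had the highest mean of the 17, at 5.14 CPM per kb. It was at 2.72, 12.3 and 17.1 CPM in the wt libraries and at 4.52, 19.4 and 5.07 CPM in the libraries labelled flt3L-/- (log2 fold change -0.09, SE 0.59, and 0.69 without pair 3). Ccr2, the receptor of inflammatory monocytes for Ccl2 and Ccl7, was at 15.1, 38.5 and 69.8 CPM in the wt libraries and at 12.3, 21.5 and 2.73 CPM in the others. It was lower in the second group in 3 of 3 pairs, with overlapping groups (log2 fold change -1.73, SE 0.98, unadjusted p = 0.140 in edgeR's quasi-likelihood test), and its log2 fold change without pair 3 was -0.57.

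Cx3cr1, the fractalkine receptor of monocytes and tissue macrophages, was at 1.44, 2.95 and 1.23 CPM in the wt libraries and at 0.619, 2.504 and 0.277 CPM in the others, with overlapping groups (log2 fold change -1.12, SE 0.53, unadjusted p = 0.0915 in edgeR's quasi-likelihood test). Without pair 3 its log2 fold change was -0.69.

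Ccr1 and Cxcr2, receptors of myeloid cells and neutrophils, differed in direction between pairs. Ccr1 was at 0.505, 8.89 and 12.4 CPM in the wt libraries and at 8.92, 19.9 and 0.554 CPM in the libraries labelled flt3L-/-. Cxcr2 was at 0.0778, 3.69 and 3.32 CPM in the wt libraries, the first value being 2 counts, and at 6.37, 9.25 and 0.554 CPM in the others. Both were higher in the second group in pairs 1 and 2 and lower in pair 3, and their log2 fold changes of 0.70 and 1.30 had SEs of 1.95 and 1.80 and were 2.44 and 3.03 without pair 3. Summed levels of 8 neutrophil markers, such as S100a8, moved in the same way: 2.72, 111 and 129 CPM in the wt libraries, against 166, 236 and 8.07 CPM in the others. In the wt library of pair 1, the neutrophil markers Ly6g, Retnlg and Camp were at 0. Of the 6 neutrophil markers tested, 0 had an adjusted p under 0.05 and 5 were fitted higher, and their part in the levels of Ccr1 and Cxcr2 was not tested.

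Cxcr4, the signalling receptor for Cxcl12 that holds stem cells and leukocytes in their niche, differed by 1.72 times between the highest and the lowest library. It was at 3.03, 5.01 and 5.21 CPM in the wt libraries and at 3.06, 3.95 and 3.80 CPM in the libraries labelled flt3L-/-. The groups overlapped in a narrow range (log2 fold change -0.26, SE 0.28, and -0.17 without pair 3). Cxcr3, the receptor of activated T cells and NK cells for Cxcl9 and Cxcl10, was at 0.661, 2.72 and 3.09 CPM in the wt libraries and at 1.17, 4.88 and 1.23 CPM in the others. Cxcr6 and Cxcr5, receptors of T cells and B cells, were also tested and lay between 0.0389 and 3.45 CPM. The 7 that were not tested reached at most 1.08 CPM (Ccr10) in any library.

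Of the atypical receptors, Ackr3 was the most abundant. It takes up Cxcl12 and was at 174, 204 and 152 CPM in the wt libraries and at 190, 246 and 119 CPM in the libraries labelled flt3L-/-. The groups overlapped, and the log2 fold change was 0.02 (SE 0.17, unadjusted p = 0.931 in edgeR's quasi-likelihood test), the value changing sign with library size only as the scaling (-0.02). Ackr3 made up 90.6% or more of the summed atypical level per kb in each library. Its 54.1 CPM per kb set it above every signalling receptor, including Cxcr4 at 2.22 CPM per kb, the other receptor for Cxcl12. Ackr4, a scavenger of Ccl19, Ccl21 and Ccl25, was at 13.7, 16.7 and 9.13 CPM in the wt libraries and at 6.74, 19.7 and 5.11 CPM in the others (log2 fold change -0.53, SE 0.32). Ackr2, a scavenger of inflammatory Ccl ligands, was at 5.56, 5.36 and 9.42 CPM in the wt libraries and at 5.97, 8.66 and 4.71 CPM in the others. All 3 were lowest in the library labelled flt3L-/- of pair 3.

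Ackr1, which venular endothelium and erythroid cells carry, did not pass the filter. It had 0, 2 and 0 counts in the wt libraries and 5, 12 and 16 counts in the libraries labelled flt3L-/-, so every library of the second group lay above every wt library. This held for 4.19% of the 14166 genes outside those tested that had 3 counts or more in a library. The ratio of summed scaled counts was 16.9 (exact 95% interval 4.33 to 146, for counting error only). Because the gene was named for its lack of overlap, this interval does not test a difference. In Ackr1, 25.7% of the exon bases lie in Cadm3, and the strand was not recorded.

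Textbook pairs of ligand and receptor differed in how their levels compared. Cx3cl1 was at 60.7 CPM per kb and its receptor Cx3cr1 at 0.334, whereas Ccl19 was at 6.31 and its receptor Ccr7 at 5.14 CPM per kb. Ccl5, at 75.8 CPM per kb, was far above its receptor Ccr1 at 3.01 CPM per kb. For Cx3cl1 and Cx3cr1 the fitted values had opposite signs (0.41 and -1.12), as they did for Ccl5 and Ccr1 (-1.22 and 0.70). Those of Ccl19 and Ccr7 had the same sign (-0.23 and -0.09). Opposite signs were thus not particular to the fractalkine pair, and other pairs are not named here.

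**Figure D3:**
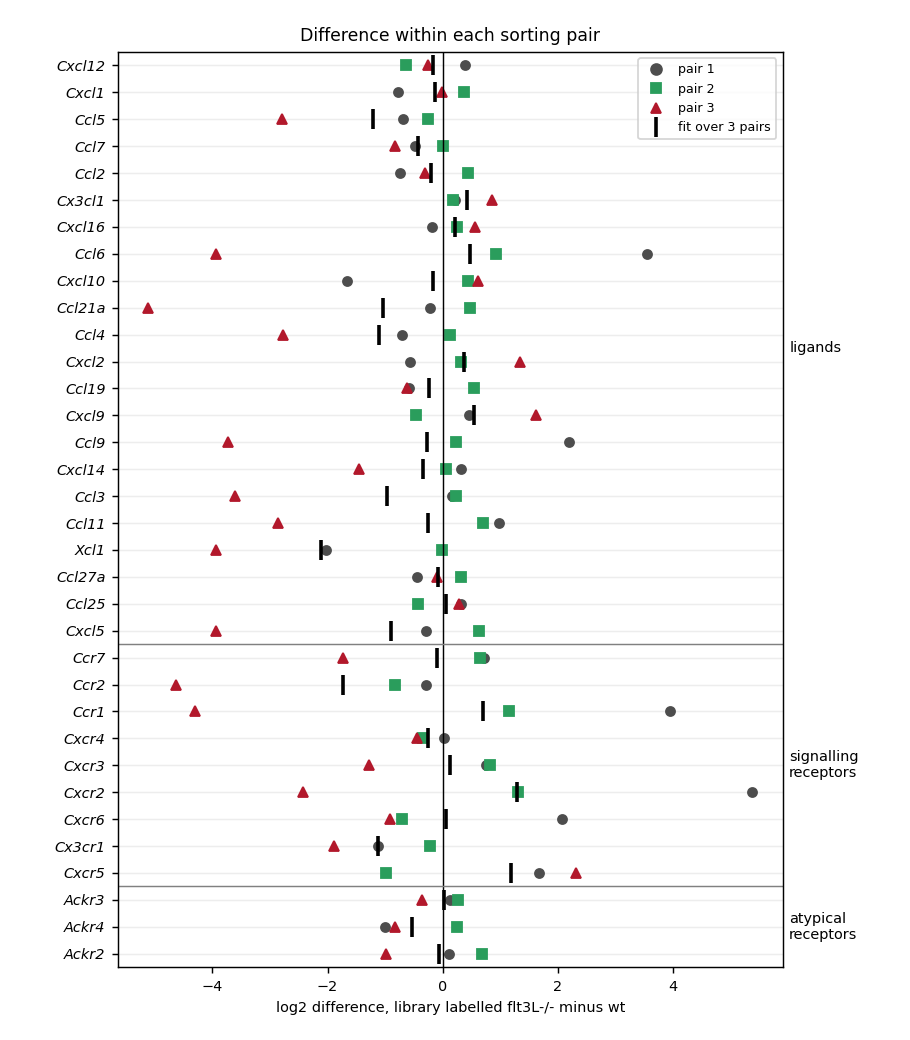
Log2 difference (library labelled flt3L-/- minus wt, prior count of 2) within each of the 3 sorting pairs for 34 of the tested genes, with the black bar at the fitted value over 3 pairs; rows are ordered as in the plot of levels. In pair 3 (red triangles), 27 of the 34 genes plotted lie left of 0, against 16 in pair 1 and 10 in pair 2.

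By role, 6 ligands were fitted higher and 16 lower, 5 signalling receptors higher and 5 lower, and 1 atypical receptor higher and 2 lower, in all 12 higher and 23 lower. The median log2 fold change was -0.22 over ligands, -0.02 over signalling receptors and -0.06 over atypical receptors, against a median of -0.00027 over all genes tested. These medians hid differences between the pairs as matched here. Over the 35 genes the median log2 difference was 0.01 in pair 1, 0.24 in pair 2 and -0.99 in pair 3, while that of all genes was 0.04, 0.0036 and 0.01. In pair 1, 17 of 35 genes were lower in the library labelled flt3L-/-, against 45.9% of all genes. In pair 2, 11 of 35 were lower, against 49.6%, and in pair 3, 28 of 35 were lower, against 48.8%. Signalling receptors had the widest span, with median log2 differences of 0.73, -0.28 and -1.81 in pairs 1, 2 and 3 and 9 of 10 lower in pair 3. Without pair 3, 16 of 34 members tested were fitted higher and 18 lower, the median over signalling receptors was 0.59, and that over ligands was -0.04.

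**Figure D4:**
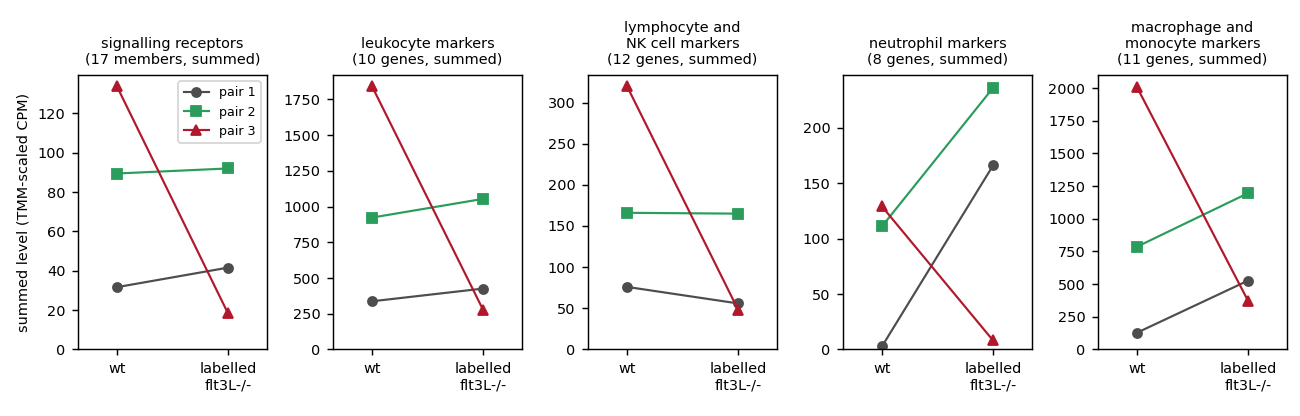
Summed level (TMM-scaled CPM) of the 17 signalling receptors and of 4 lists of leukocyte markers in each library, with lines joining the libraries of 1 pair and each panel on its own axis from 0. In all 5 panels the line of pair 3 falls from wt to the library labelled flt3L-/-, from 134 to 18.3 CPM for the receptors, and in no panel do the lines of pairs 1 and 2 fall as far.

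The summed levels of most leukocyte lists, like that of the receptors, were lower in the second group in pair 3, while that of dendritic cell markers was not. Gene by gene, however, 5 of the 7 tested dendritic cell markers were lower in pair 3, with a median log2 difference of -1.74. All 10 general leukocyte markers were fitted lower, with a median log2 fold change of -0.57 and 0 at an unadjusted p under 0.05. The 12 markers of lymphocytes and NK cells summed to 76.0, 166 and 320 CPM in the wt libraries, against 55.9, 165 and 48.4 CPM in the others. Their sum was thus lower in the second group in pair 1, where the receptor sum was higher, and nearly equal in pair 2. The median log2 difference of the tested markers was 0.155 in pair 1, 0.239 in pair 2 and -2.51 in pair 3. Of the 8 tested, 2 were lower at an unadjusted p under 0.05, namely Klrb1c and Gzma of NK cells, and 0 at an adjusted p under 0.05. The 11 macrophage and monocyte markers summed to 128, 786 and 2007 CPM in the wt libraries, against 527, 1196 and 371 CPM in the others. Dendritic cell markers, of which Ccr7 is also a member here, summed to 233, 281 and 314 CPM in the wt libraries, against 336, 273 and 326 CPM in the others, higher in the second group in pairs 1 and 3 and lower in pair 2, with Flt3, Cd209a and Siglech at 0 in the wt library of pair 1. Among other lymphocyte and macrophage markers, Ms4a1 and Mrc1 were at 0 in that library, and Ms4a1 also in the library labelled flt3L-/- of the same pair. Further zeros were Siglech in the wt library of pair 3 and in the libraries labelled flt3L-/- of pairs 1 and 2, Camp in that of pair 1, and Ly6g and Cd209a in that of pair 3, and no leukocyte marker was at 0 in all 6 libraries. The part of leukocyte transcripts in the levels of Ccl5, Ccr2 and the other receptors was not tested.

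Other marker lists covered the cells of the vessel wall and heart. Pericyte and smooth muscle markers summed to 449 to 915 CPM in wt and 276 to 568 CPM in the others, with 2 of 10 (Abcc9 and Myh11) lower at an unadjusted p under 0.05. Cardiomyocyte markers summed to 126 to 180 CPM in wt and 186 to 217 CPM in the others, and erythroid markers to 243 to 419 CPM and 372 to 491 CPM, each with 1 marker (Tnni3 and Alas2) higher at an unadjusted p under 0.05. Mesothelial markers summed to 22.1 to 65.1 CPM and 38.2 to 57.9 CPM. SP and progenitor markers, Cxcl12 among them, summed to 3968 to 5266 CPM and 4153 to 5746 CPM. Of these, Abcg2, the dye pump that gives the SP its phenotype, was detected in every library at 147 to 274 CPM. Of the general leukocyte, endothelial, macrophage and monocyte, neutrophil, dendritic cell, mesothelial and SP lists, 0 markers had an unadjusted p under 0.05.

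The genes that act with chemokines were taken from 5 lists, and 0 of their genes had an adjusted p under 0.05. Those named were chosen by their unadjusted p. Of 26 transducers of receptor signals, 1 was lower at an unadjusted p under 0.05, namely Prex1, a Rac activator (142, 137 and 121 CPM in wt, 107, 97.6 and 44.1 CPM in the others), and the median log2 fold change was -0.20. Rac2 of this list is also a general leukocyte marker. Of 14 tested genes of receptor desensitization, 1 was lower at that threshold, namely Rgs4, an inhibitor of G protein signalling, with a median of -0.30. Of 19 genes that process or present chemokines, 2 were lower, the heparan sulfate proteoglycans Sdc1 and Gpc1, with a median of -0.16. Gpc1 was at 18.6, 16.8 and 12.7 CPM in the wt libraries and at 11.2, 10.3 and 4.35 CPM in the libraries labelled flt3L-/-, so its groups did not overlap (log2 fold change -0.99, unadjusted p = 0.0115 in edgeR's quasi-likelihood test). Of 9 tested chemokines and receptors with other symbols, such as the platelet chemokines Pf4 and Ppbp, 0 passed either threshold (median 0.12). The same held for the 25 NF-kB and interferon factors that induce chemokines (median 0.04).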

How the data were processed

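RNA of sorted cardiac SP cells was sequenced as unstranded single reads of 81 bases. As the study's methods state, the authors mapped reads with STAR 2.5.2a to mm10, allowed at most 10 hits, placed equally good hits at random, and deposited counts of reads starting in exons of Ensembl release 88, with no normalization. FastQC 0.11.3 is named in the submitters' processing notes.

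Symbols, biotypes and positions came from GENCODE M21 (GRCm38), which lacked 224 of the genes. Protein-coding genes that exceeded 1 CPM in 2 or more libraries (13475) were scaled with TMM and tested in edgeR 4.0.16 (R 4.3.3) with glmQLFit and glmQLFTest, legacy = TRUE, as a quasi-likelihood test with the sorting date as a block. SEs were derived from the F statistic, and p-values were adjusted by Benjamini-Hochberg over all genes tested. A prior count of 2 entered log2 differences within pairs. Levels between genes were compared per kb of exon, and exon overlap was counted without strand. Intervals are exact for counting error, which is not the only error of PCR reads. The code was tested on simulated data.

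The study's methods state that pairs were processed on different days. They do not name the libraries of each pair. Libraries of the same replicate number, that is, the same order within each group, were taken as a pair. The library titles number the groups differently and do not give this match, and the number that both groups share falls in different pairs. All differences within pairs and all p-values with the date as a block depend on this match. After removal of group means, libraries of 1 pair correlated at 0.104 to 0.18 across genes, against -0.354 to 0.247 for libraries of different pairs. The highest value, 0.247, was that of the wt library of pair 2 and the library labelled flt3L-/- of pair 1. These correlations therefore do not establish which libraries share a date. No library was a copy of another (chi-square per degree of freedom at least 38.8).

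The genes and lists were chosen with earlier results of these data known: the 58 family members, 5 pathway lists and 12 marker lists. Named with all values were the 8 ligands and 6 signalling receptors with the highest mean level per kb, atypical receptors past the filter, the 3 ligands and 3 receptors with the smallest p, and any member whose groups did not overlap; others are said to be chosen after their values were seen. Some genes of the family and of the lists are counted but not reported here. Alternatives were 3 other scalings, DESeq2 1.42.0, legacy = FALSE, 3 other filters, all biotypes, no replicate block, each pair left out, and summed copies of Ccl21 and Ccl27.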

Additional observations from a re-analysis of the deposited data

Results flagged for a closer look

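Of 17 chemokine and receptor genes outside those tested with 3 counts or more in a library, 2 lay higher in every library labelled flt3L-/- than in every wt library, against 4.19% of all genes outside those tested, and 0 lay lower. The atypical receptor Ackr1 had 33 counts in the libraries labelled flt3L-/- against 2 in the wt libraries. Cxcl11, an interferon-induced ligand of Cxcr3 that the annotation lists as a polymorphic pseudogene, had 25 counts (11, 5 and 9) against 10 in the wt libraries (4, 2 and 4), a ratio of 2.57 of the scaled counts (exact 95% interval 1.19 to 5.99, counting error only). Of the exon bases of Cxcl11, 41.7% lie in other genes, and the libraries carry no strand. Ackr1 and Cxcl11 were singled out because their groups did not overlap, so the intervals given for them do not test a difference.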

How the results depend on the processing

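With edgeR's quasi-likelihood test, 0 members and 0 of all genes had an adjusted p under 0.05 in each setting run with it, and with DESeq2 these counts were 0 and 21. Members at an unadjusted p under 0.05 numbered 4 with DESeq2 (Ccl5, Ccr2 and Xcl1 among them; 641 of all 13475 genes), 3 with no filter (with Ackr1 and Ccl5; 609 of 19612), 2 with filterByExpr (with Ackr1; 525 of 14586), and 1 with legacy = FALSE (516 of 13475), with all biotypes (625 of 16909), and without the replicate block (262 of 13475), against 0 and 484 as reported. That number ranged from 1 without pair 1 (Cxcl10) over 3 without pair 3 (with Ccr1 and Ccl6) to 7 without pair 2 (with Xcl1, Ccl7, Ccl5, Ccl4, Ackr4 and Cxcl9), and that of all genes from 249 without pair 3 to 980 without pair 2. Between the libraries of a pair, chi-square per degree of freedom was 39.1 in pair 2, against 85.9 in pair 1 and 86.7 in pair 3, and the cause of these shifts was not tested. Of 204 fitted values of the 19 named genes tested, over the alternatives with all libraries, 202 kept their sign, while Ackr3 was at -0.024 with library size only and Ccl6 at -0.17 without the replicate block. The summed copies of Ccl21 and Ccl27 are among these alternatives, but Ccl21b and Ccl27b had no counts, so that fit could not differ from the main one. With 1 pair left out, 43 of 57 values kept their sign and 14 changed, in 10 genes. Over the 3 fits the log2 fold change ranged from -0.47 to 0.40 for Ackr2, from -0.13 to 0.20 for Ackr3, from -0.55 to 0.062 for Ccl2, from -1.46 to 2.17 for Ccl6, from -1.44 to 2.44 for Ccr1, from -0.55 to 0.69 for Ccr7, from -0.42 to 0.18 for Cxcl1, from -0.45 to 0.044 for Cxcl12, from -0.49 to 3.03 for Cxcr2 and from -0.32 to 0.83 for Cxcr3. The median over signalling receptors ranged from -0.70 without pair 1 to 0.59 without pair 3. Depth limits the 7 members that never reached 3 counts, which were not compared, and Ackr1, whose 2 counts in wt leave a wide interval.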

Other observations

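Among genes of the pathway lists chosen for naming after their values were seen, Ccrl2, which presents the attractant chemerin on the cell surface, had its highest level in the wt library of pair 1, as Cxcl1 and Ccl2 did. It was at 107, 42.1 and 47.0 CPM in the wt libraries and at 51.8, 44.6 and 50.6 CPM in the libraries labelled flt3L-/-. Rarres2, which encodes chemerin, was at 112, 78.5 and 63.2 CPM in the wt libraries and at 41.5, 111 and 44.0 CPM in the others, with overlapping groups. Nfkbia, an inhibitor of NF-kB that NF-kB itself induces, lay between 602 and 928 CPM in all 6 libraries. Irf1, a factor of the interferon response, lay between 342 and 627 CPM, with the highest level in the library labelled flt3L-/- of pair 3, where Cxcl9 was also highest.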
